A study of Saccharomyces cerevisiae with 8 samples.

Results

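Transcript levels after 1 h at 35 °C were compared with those at 25 °C in PY1, a strain of the budding yeast *Saccharomyces cerevisiae*. The comparison took in 4 of the series' 8 arrays, chosen by their titles, 2 at 35 °C and 2 at 25 °C (titled RT), and covered all 5449 genes that could be named. PY1 was grown to mid-log phase in YPDA, a rich glucose medium, at 25 °C, and cells were then held for 1 h either at that temperature or at 35 °C before freezing. The other 4 arrays held the same conditions in a strain with the temperature-sensitive *met30-6* allele (py283), and they are used here for the estimate of spread and for a test of the strain difference. No source used here states the genotype of PY1. Nor is it stated whether a group's 2 replicates were grown as separate cultures, so p-values reflect the spread among these arrays alone, which may be technical.

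As background, the heat shock factor Hsf1 of yeast drives chaperones, which fold, hold or disaggregate proteins, and the paired zinc finger factors Msn2 and Msn4 drive a general stress programme of carbohydrate storage, redox and protein quality control genes. Under stronger stress the genes of ribosome synthesis are commonly lowered for a time. A shift to 35 °C is a mild heat stress for most laboratory strains and a common restrictive temperature for conditional alleles.

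Values are the deposited log2 expression levels, so that a difference of 1 is a 2-fold change. Differences are 35 °C minus 25 °C with their SE, tested with limma, and a gene was called at a Benjamini-Hochberg adjusted p under 0.05. A gene whose mean was under 6 in a PY1 group is termed dim, because replicate spread was wide there. The median SE was 0.329 for the 241 genes with a PY1 mean under 6, against 0.068 for the 2868 genes between 10 and 12. Across probe sets Pearson's r was 0.9927 between the 25 °C replicates, 0.9951 between the 35 °C replicates and 0.9744 to 0.9765 between temperatures. The array medians over probe sets were at most 11.02 at 25 °C and stood at 11.04 and 11.09 at 35 °C, so both heated arrays were slightly higher.

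Over all genes, 1998 (36.7%) were called, 1429 higher (26.2%) and 569 lower (10.4%), and 2549 had an unadjusted p under 0.05. Most changes were small. The median difference was 0.38 among genes called higher and −0.35 among those called lower, against 0.075 over all genes. At least 2-fold changes were called for 139 genes that rose (2.55%) and 39 that fell (0.716%). Of these, 54 and 4 were dim in a PY1 group. The balance between directions moved with the scaling: 71.5% of the calls were higher as deposited, 58.4% with array medians centred and 50.1% after quantile normalisation, which gave 1144 genes lower and 89 and 70 genes past 2-fold. Leaving out 35 °C replicate 2 left 732 genes higher, and leaving out 35 °C replicate 1 left 299 lower. These settings were among the 17 alternatives run. Each gene said below to have risen or fallen was called with the same sign in every alternative that kept it, unless its sentence says otherwise. By that measure 667 genes rose and 249 fell, of which 118 and 36 changed at least 2-fold. Counts of calls per list below stand against the 26.2% and 10.4% called over all genes. The small counts per list given below are the least firm: of 51 counts of 1 to 3 calls, 41 moved by over 1.5 times when some single array was left out, and the larger counts that did so are given with the array named.

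**Figure D1:**
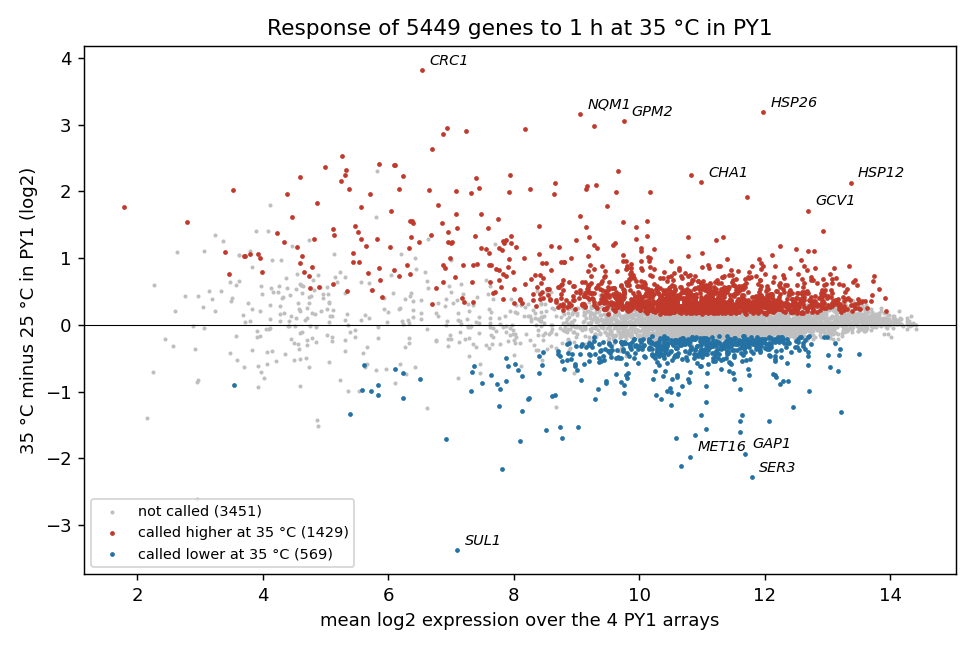
Difference between 35 °C and 25 °C in PY1 (vertical axis, log2) against the mean log2 level over the 4 PY1 arrays (horizontal axis), 1 point per gene. Red points are the 1429 genes called higher, blue points the 569 called lower and grey points the rest. Genes with a mean under 6 scatter widely, and the named points mark large differences.

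Several heat-inducible members of the chaperone families rose, whereas their constitutive partners were mostly not called. All 6 genes of the list of disaggregases and small heat shock proteins were called higher, with a median difference of 0.62, and 4 of them were called in every alternative. *HSP26*, a small heat shock protein that binds unfolding proteins, read 10.42 and 10.36 on the 25 °C arrays and 13.57 on both 35 °C arrays. The groups stood far apart, by 3.18 ± 0.05 (SE, adjusted p = 8.98e-07). *HSP12*, a small protein of membranes, read 12.36 and 12.25 against 14.46 and 14.41, and thus approached the highest value on any array (14.51). *HSP30*, a plasma membrane protein, rose by 0.72 ± 0.09 and *HSP104*, the disaggregase, by 0.49 ± 0.07. The calls of *HSP42* (0.53 ± 0.12) and *HSP31* (0.49 ± 0.09) ended without 35 °C replicate 2, and that of *HSP42* also without 35 °C replicate 1.

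Among the 12 genes of Hsp90 and its co-chaperones, 5 were called higher and 1 lower, with a median of 0.28. Without 25 °C replicate 1, 8 were called higher. *HSP82*, the inducible Hsp90, read 12.32 and 12.15 at 25 °C and 13.35 and 13.33 at 35 °C, so that both heated arrays were about 2-fold higher (1.10 ± 0.07, adjusted p = 0.000102). The constitutive *HSC82* differed by 0.18 ± 0.07 and was not called. *AHA1* and *HCH1*, which stimulate the ATPase of Hsp90, rose by 0.85 ± 0.07 and 0.59 ± 0.06, and the prolyl isomerase gene *CPR6* by 0.48 ± 0.07. The co-chaperone genes *STI1* (0.36), *SGT1* (0.23), *SBA1* (0.16), *CNS1* (0.10) and *CPR7* (0.09) were not called.

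In the cytosolic Hsp70 list, 4 of 11 were called higher and 0 lower, with a median of 0.06. *SSA4*, the heat-inducible Hsp70, read 10.38 and 10.16 against 11.35 and 11.24, a difference of 1.03 ± 0.12 (adjusted p = 0.00108). *SSA1* rose by 0.67 ± 0.09 and the Hsp110 gene *SSE2* by 0.59 ± 0.08. The ribosome-associated Hsp70 genes *SSB1* (−0.02) and *SSB2* (−0.14), the constitutive *SSA2* (0.06) and the main Hsp110 gene *SSE1* (0.05) were not called. *SSA1* and *SSA2* are close in sequence, and how far their probe sets share signal was not tested. Of 11 cytosolic J proteins, which stimulate Hsp70, *JJJ3* alone was called higher, by 0.99 ± 0.09, and 0 were called lower. It read 9.64 and 9.69 against 10.63 and 10.70. *YDJ1* (0.11), the main J protein of the cytosol, was not called. Without 25 °C replicate 1, 4 members were higher. In the chaperonin TRiC and prefoldin list, 1 of 14 was called in each direction, and *CCT7*, a TRiC subunit, fell by 0.40.

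The organelles also held raised chaperones. Of 17 mitochondrial chaperones and proteases, 8 were called higher and 0 lower, with a median of 0.20, and 5 higher when 25 °C replicate 2 or either 35 °C replicate was left out. *JAC1*, a J protein of iron-sulfur cluster assembly, read 9.62 and 9.48 against 10.50 and 10.52 (0.96 ± 0.06, adjusted p = 0.000126). The matrix disaggregase gene *HSP78* rose by 0.67, and the chaperonin genes *HSP10* and *HSP60* by 0.63 and 0.54. In the endoplasmic reticulum, 12 of 20 folding and stress genes were called higher and 1 lower, against 26.2% and 10.4% over all genes. The median was 0.34, and 9 and 1 were called in every alternative. The rises were even and small. The disulfide isomerase genes *MPD1* and *MPD2* rose by 0.50 and 0.36, the oxidase gene *ERO1* by 0.39, calnexin (*CNE1*) by 0.34, and *HRD3* and *DER1* of the degradation pathway by 0.41 and 0.39. *EPS1*, another isomerase-like gene, fell by 0.33.

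Of 11 further genes listed as heat shock factor targets, together with the factor itself, 4 were called higher and 0 lower. Without 35 °C replicate 1 or 2 there were 1 and 2. The polyubiquitin gene *UBI4* rose by 0.62 ± 0.07. The heat shock factor gene *HSF1* (−0.04), the aggregate-sorting genes *BTN2* (−0.02) and *CUR1* (−0.04) and the coactivator gene *MBF1* (−0.04) were not called. Proteasome genes were mostly not called. Of 33 listed, 1 was called higher and 4 lower, with a median of 0.02, and each alternative without a PY1 array moved these counts, to 4 and 2 without 25 °C replicate 1 and to 0 and 1 without any of the other 3. *RPN4*, which encodes the activator of proteasome genes, fell by 0.33. After quantile normalisation 12 were lower. Among 19 ubiquitin genes, 4 were called higher and 1 lower, and *UBI4* alone was called higher in every alternative. The higher count was 1 without 35 °C replicate 1, and 2 without 25 °C replicate 2, 35 °C replicate 2 or any met30-6 array.

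**Figure D2:**
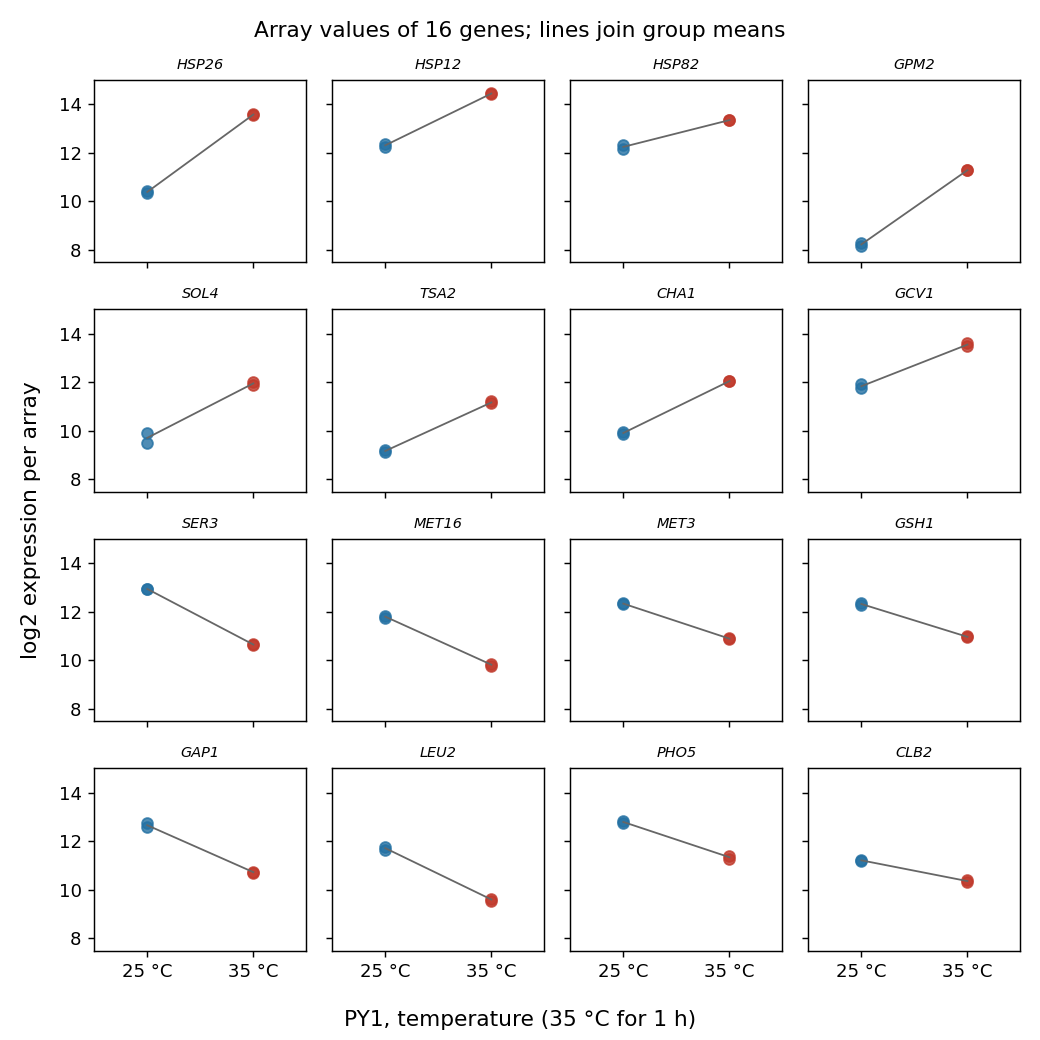
log2 expression level on each PY1 array for 16 genes (vertical axis) at 25 °C (blue) and after 1 h at 35 °C (red). Points are arrays and lines join the 2 group means. In each panel the 2 arrays of a group lie close together. The groups do not overlap in these genes, as in 67.8% of all genes.

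Most genes of the general stress programme of Msn2 and Msn4 rose. Of 36 listed genes, 25 were called higher and 0 lower, with a median of 0.61, and 20 of them were higher in every alternative, against 26.2% called higher over all genes. After quantile normalisation the counts were 22 and 3. *SPI1*, which encodes a cell wall protein, read 8.66 and 8.37 against 10.85 and 10.79 (2.31 ± 0.10, adjusted p = 1.82e-05). *PAI3* and *TFS1*, inhibitors of the vacuolar proteases A and Y, stood together. *PAI3* read 8.12 and 8.13 at 25 °C and 10.21 and 10.20 at 35 °C, and *TFS1* read 10.85 and 10.66 and then 12.66 and 12.68. Each pair of heated arrays lay well above the other pair, by 2.08 ± 0.07 and 1.91 ± 0.08. The aldehyde dehydrogenase gene *ALD3* rose by 1.63, *DCS2* by 1.46 and its paralog *DCS1*, a scavenger decapping enzyme, by 0.46. The transcripts of the factors themselves, *MSN2* (−0.11) and *MSN4* (0.02), were not called.

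In the trehalose list 6 of 8 genes were called higher and 0 lower, with a median of 0.49. *ATH1*, the acid trehalase, read 9.37 and 9.25 against 10.55 and 10.64 (1.29 ± 0.07, adjusted p = 8.21e-05). The neutral trehalase genes *NTH1* and *NTH2* rose by 0.65 and 0.87, and *TSL1*, a regulatory subunit of the synthase complex, by 0.88. *TPS2*, an enzyme of synthesis, was called at 0.34 but not without 35 °C replicate 2. The synthase gene *TPS1* was called at 0.33, a call that ended in 10 alternatives, among them centred medians. The regulatory paralog *TPS3* (0.08) was not called.

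Of 15 glycogen genes, 6 were called higher and 3 lower, with a median of 0.05, 6 and 2 of them in every alternative. *GPH1*, glycogen phosphorylase, read 10.60 and 10.57 against 11.86 and 11.85 (1.27 ± 0.06). The debranching enzyme gene *GDB1* rose by 0.61. The paralogous synthase genes parted: *GSY2* rose by 0.62 ± 0.08, from 11.09 and 10.90 to 11.55 and 11.68, and *GSY1* fell by 0.80 ± 0.12, from 10.32 and 10.08 to 9.28 and 9.51. The glycogenin gene *GLG2* rose by 0.46. *GAC1* and *GIP2*, which target the phosphatase Glc7 to glycogen synthase, rose by 2.32 and 2.03 but were dim at 25 °C, so the sizes are uncertain.

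In many pairs of isozymes or other related genes, chaperone pairs described above among them, 1 member was called higher and the other was not. The pairs were chosen with earlier results of these data known. Most had the form known for stress or for a poor carbon source named first, and some shared a gene. Of 46 measured pairs, the first gene was called higher in 29, against 26.2% of all genes. In 20 of these the second was not called higher, and in 9 both were. The second gene was called higher in 13 of the 46, near the 26.2% of all genes. In some pairs it alone was called higher: *UBC4* (0.33), *DAK1* (0.53), *SSC1* (0.25) and *PDI1* (0.35). Their partners *UBC5*, *DAK2*, *ECM10* and *EUG1* were not called. Of these second genes, *UBC4*, *SSC1* and *PDI1* were not called in every alternative. Among the 20, the calls of *TPS1*, *GPD1*, *PYK2* and *TKL2* did not hold in every alternative. *GSY2* and *GSY1* were the pair called in opposite directions. The difference within a pair was not itself tested. *GPM2*, a homolog of phosphoglycerate mutase, read 8.28 and 8.18 at 25 °C and 11.28 on both arrays at 35 °C, whereas the main enzyme gene *GPM1* differed by 0.02. *NQM1*, a transaldolase paralog, rose by 3.16 and *TAL1* differed by 0.16. *SOL4*, a 6-phosphogluconolactonase gene, went from 9.71 ± 0.28 to 11.95 ± 0.07 (SD, n = 2), while *SOL3* differed by −0.05. The phosphoglucomutase genes *PGM2* and *PGM1* stood at 0.99 ± 0.09 and −0.22, and the hexokinase genes *HXK1* and *HXK2* at 0.69 ± 0.11 and 0.06. In none of these 5 pairs was the gene named second called.

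**Figure D3:**
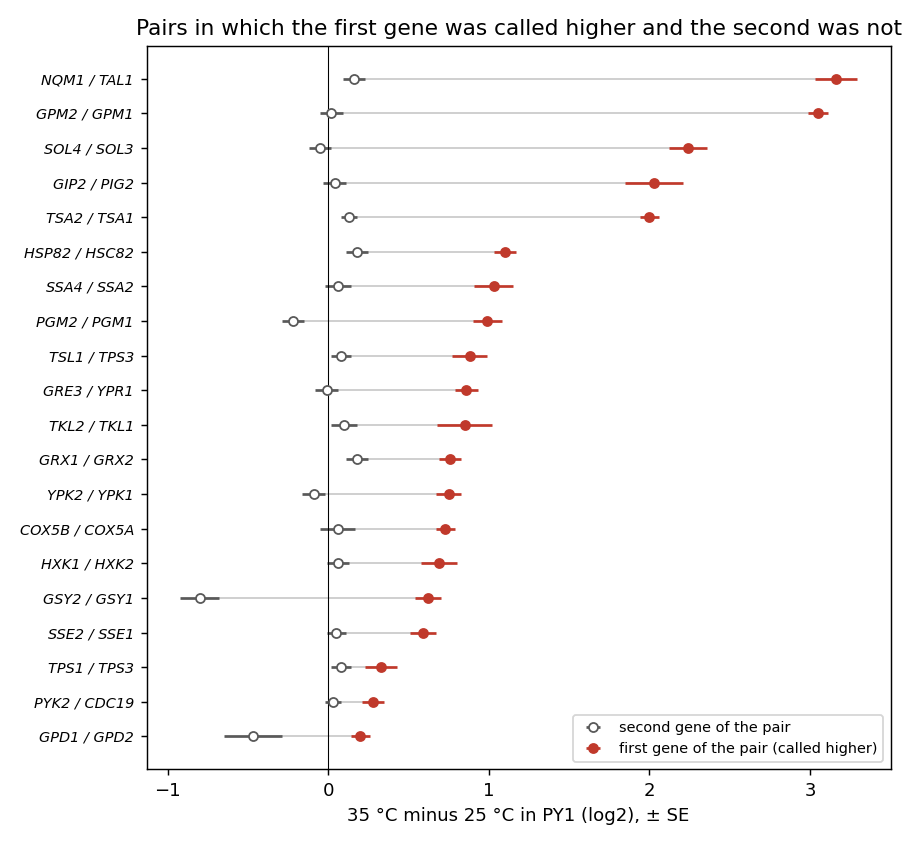
Difference between 35 °C and 25 °C in PY1 (horizontal axis, log2, bars ± SE) for the 20 gene pairs whose first gene (red) was called higher and whose second gene (open) was not. First genes run from 0.20 to 3.16, and the second genes lie between −0.80 and 0.18.

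In the glycolysis and fermentation list 6 of 26 genes were called higher and 2 lower, with a median of 0.03; without 35 °C replicate 2 the counts were 3 and 1, and without 35 °C replicate 1 there were 0 lower. After *GPM2*, the glyceraldehyde dehydrogenase gene *TDH1* rose by 0.85, from 12.70 and 12.67 to 13.49 and 13.57, and *PFK26*, which makes the activator of phosphofructokinase, by 0.75. The main enzymes *CDC19* (0.03), *ENO2* (−0.01) and *PDC1* (0.01) were not called. Of 17 pentose phosphate genes 5 were called higher and 2 lower, with a median of 0.10, and the oxidative enzyme gene *GND1* (0.03) was not called. The higher counts of both lists were near the 26.2% called higher over all genes. Of 13 glycerol genes, 6 were called higher and 1 lower, with a median of 0.20. *GCY1*, a glycerol dehydrogenase, rose by 0.81, the phosphatase gene *GPP2* by 0.67 and the dihydroxyacetone kinase gene *DAK1* by 0.53.

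Hexose transporters were called higher in 7 of 19 cases and lower in 1, though 8 of the 19 were dim and 4 were called higher with dim genes left out. *HXT7*, a high-affinity carrier, read 12.20 and 12.07 against 13.19 and 13.29 (1.10 ± 0.07). Its probe set carries a suffix for matches to several transcripts, so its signal may include close family members. The low-affinity carrier gene *HXT1* rose by 0.72 and *HXT2* by 0.48, and the glucose sensor gene *SNF3* by 0.53. In the short list of hexose phosphorylation and sugar nucleotides, 2 of 8 were called higher, *PGM2* and *HXK1*, and 0 lower.

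Genes for poor carbon sources were raised in part, in a medium with glucose. Of 23 genes of gluconeogenesis, acetate and the glyoxylate cycle, 11 were called higher and 2 lower, against 26.2% and 10.4% over all genes. The median was 0.41, and 7 and 1 were called in every alternative. *CAT8*, an activator of gluconeogenic genes, went from 6.82 ± 0.53 to 9.07 ± 0.10 (SD, n = 2; 2.25 ± 0.23, adjusted p = 0.000706). *ADR1*, another activator, rose by 0.86 and the acetaldehyde dehydrogenase gene *ALD4* by 0.76. *ICL1*, the isocitrate lyase of the glyoxylate cycle, went the other way, from 8.76 and 8.84 to 7.65 and 7.75 (−1.09 ± 0.07). *ICL2*, a mitochondrial enzyme of the same family that acts on methylisocitrate, rose by 0.82.

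Of 26 genes of peroxisomal fatty acid oxidation and the carnitine shuttle, 15 were called higher and 1 lower, with a median of 0.26, and 9 and 0 in every alternative. After quantile normalisation 10 were higher and 3 lower. The carnitine acetyltransferase genes *YAT1*, *YAT2* and *CAT2* all rose, by 1.77 ± 0.15, 0.88 ± 0.10 and 0.75 ± 0.10. *YAT1* read 8.86 and 8.34 against 10.36 and 10.39. The carrier gene *CRC1* rose by 3.82 but read 4.59 and 4.67 at 25 °C, in the dim range. The import receptor gene *PEX21* rose by 0.80 and *OAF1*, an oleate-activated factor, by 0.40.

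In the citric acid cycle 8 of 23 genes were called higher and 1 lower, against 26.2% and 10.4% over all genes. The median was 0.20. The list's counts were 16 and 0 without 25 °C replicate 1, and 4 and 0 without 35 °C replicate 2. *IDH1* and *IDH2*, the subunits of isocitrate dehydrogenase, rose by 0.82 and 0.60, aconitase (*ACO1*) by 0.53 and the peroxisomal citrate synthase gene *CIT2* by 0.52. *IDH1* read 12.31 and 12.22 against 13.05 and 13.11. Of 37 respiratory chain and ATP synthase genes, 10 were called higher and 3 lower, with a median of 0.08, close to the 26.2% and 10.4% called over all genes. Only 3 were called in every alternative, the oxidase isoform gene *COX5B* (0.73) and the ATPase inhibitor and stabiliser genes *INH1* (0.41) and *STF1* (0.70). Without 25 °C replicate 2 there were 6 higher, and without either 35 °C replicate there were 4. *COX5A*, the aerobic isoform of *COX5B*, differed by 0.06.

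Of 68 mitochondrial ribosomal protein genes, 41 were called higher and 0 lower, against 26.2% and 10.4% over all genes. The median was 0.22, and 17 were called higher in every alternative. The higher count was 25, 26 and 20 without 25 °C replicate 2, 35 °C replicate 1 and 35 °C replicate 2. *RSM7*, *RSM19* and *MRPL50* led, at 0.60, 0.59 and 0.58. *RSM7* read 11.45 and 11.28 against 11.96 and 11.99. Cytosolic ribosomal protein genes were mostly not called. Of 128, 1 was called higher and 2 lower, with a median of 0.03. The 2 were *RPS22B*, which fell by 1.23 ± 0.06 from 13.07 on both 25 °C arrays to 11.86 and 11.82, and *RPS9A*, which fell by 0.58. Each has a paralog that encodes a near-identical protein.

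Of 62 genes of ribosome biogenesis, 7 were called lower and 1 higher, with a median of −0.12. The lower count is close to the 10.4% called lower over all genes. The lower count was 22 after quantile normalisation and 14 with centred medians, and 1, 1 and 2 without 25 °C replicate 2, 35 °C replicate 1 and 35 °C replicate 2. *DBP2*, an RNA helicase, was the member lowered in every alternative, from 12.50 on both arrays to 11.78 and 11.74 (−0.74 ± 0.06). Of 21 subunits of RNA polymerases I and III and their regulators, 1 was called higher and 2 lower, among them *RRN3*, an initiation factor of polymerase I, which fell by 0.29. Among 14 regulators of ribosome genes, 3 were called higher and 0 lower, and after quantile normalisation 0 and 1. Of 30 translation factors, 5 were called lower and 0 higher, and 16 lower after quantile normalisation. *TIF4632*, an eIF4G scaffold, fell by 0.42. The lower count was 3 without 25 °C replicate 1 or 35 °C replicate 2, and 2 without 35 °C replicate 1.

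**Figure D4:**
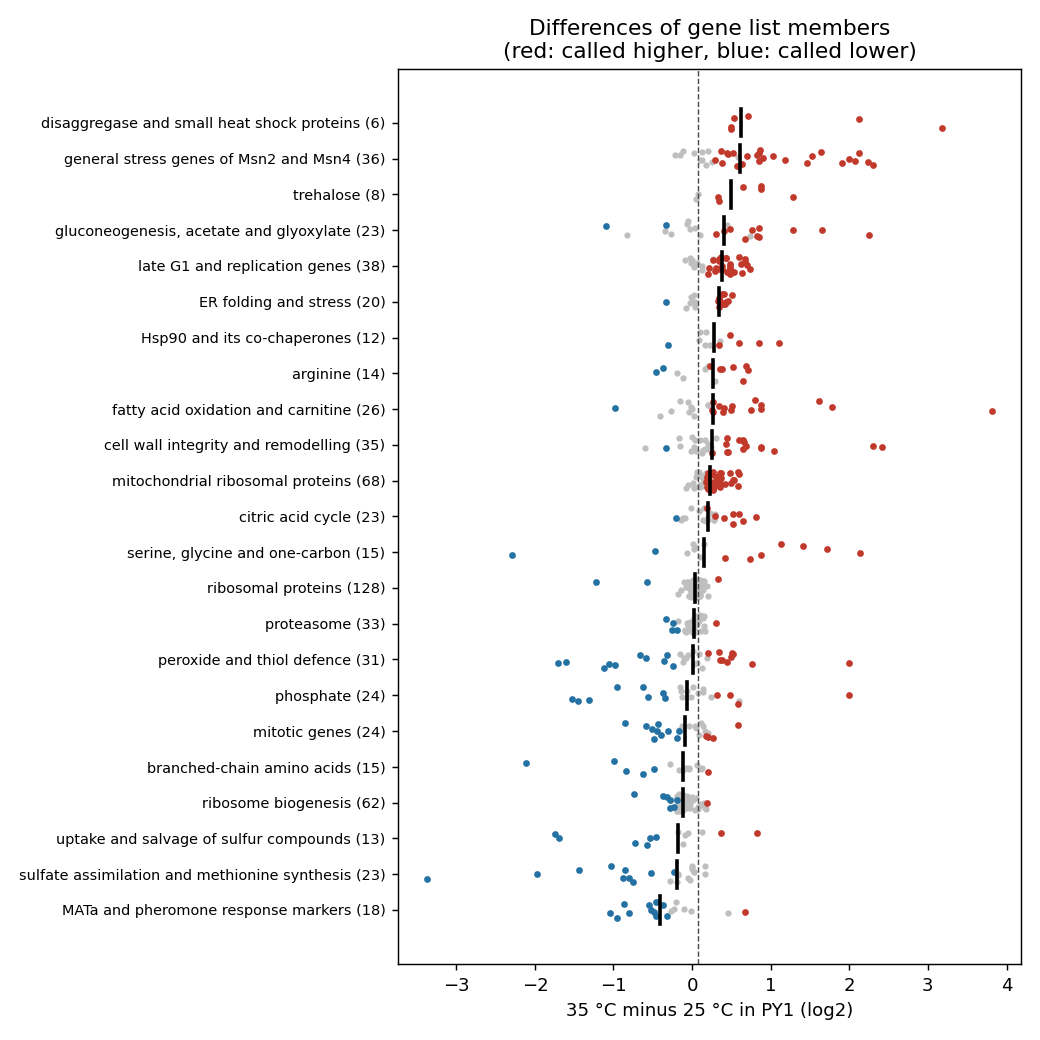
Differences between 35 °C and 25 °C in PY1 (horizontal axis, log2) for the members of 23 gene lists, with the number measured in brackets. Each point is a gene, red where called higher, blue where called lower and grey otherwise; black bars are list medians and the dashed line is the median of all genes, 0.075. General stress and late G1 genes lie to the right, sulfate assimilation and pheromone response genes to the left, and ribosomal proteins at the line.

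Redox genes went in both directions. Of 31 genes of peroxide and thiol defence, 10 were called higher and 10 lower, with a median of 0.01, and 6 and 8 in every alternative; without 35 °C replicate 2 there were 6 higher. *TSA2*, a cytosolic peroxiredoxin, read 9.21 and 9.14 against 11.13 and 11.21 (2.00 ± 0.06, adjusted p = 1.03e-05). Its main paralog *TSA1* differed by 0.13. The glutaredoxin gene *GRX1* rose by 0.76, while *GRX2* (0.18) was not called. The glutathione peroxidase homolog gene *GPX2* instead fell by 1.61 ± 0.06, from 12.39 and 12.43 to 10.82 and 10.79. *SRX1*, the sulfiredoxin that restores oxidised peroxiredoxins, fell by 1.12, the old yellow enzyme gene *OYE3* by 1.06 and *GTO3*, an omega-class glutathione transferase, by 1.71. In the aryl alcohol dehydrogenase family of 5, *AAD6*, *AAD3* and *AAD4* fell by 1.12, 0.70 and 0.66. *AAD10* rose by 0.36, and *AAD14* was called at 0.37 but not in every alternative. The probe sets of *AAD3* and *AAD4* are marked as matching several transcripts, so members of this family may share signal.

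Sulfate is taken up, activated, reduced to sulfide and built into homocysteine under the activator Met4, the target of the ubiquitin ligase subunit Met30. Of 23 genes of sulfate assimilation and methionine synthesis, 10 were called lower and 0 higher, with a median of −0.20, against 10.4% called lower over all genes, and 9 in every alternative. *MET16*, phosphoadenylylsulfate reductase, read 11.84 and 11.76 at 25 °C and 9.78 and 9.86 at 35 °C (−1.98 ± 0.06). *MET3*, ATP sulfurylase, read 12.34 and 12.32 and then 10.88 and 10.90 (−1.44 ± 0.05). In both genes the heated arrays lay far below. *MET14*, the kinase between these steps, fell by 0.88, *MET1* of siroheme synthesis by 1.03, and the permease gene *SUL2* by 0.81. *SUL1*, the other permease gene, fell by 3.38 but ended in the dim range, at 5.24 and 5.58. Of the later steps, *MET17* (−0.06), *SAM1* (−0.20) and *SAM2* (−0.18) were not called.

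Of 13 genes for uptake and salvage of sulfur compounds, 6 were called lower and 2 higher, and those 6 were lower in every alternative. The 2 were *GNP1* (0.37), an amino acid permease, and *JLP1* (0.83), a sulfonate dioxygenase that was dim at 25 °C. Neither of these calls held in every alternative. The cysteine transporter gene *YCT1* read 9.68 and 9.57 against 7.84 and 8.02 (−1.70 ± 0.08), and *SEO1*, a putative permease, fell by 1.75. The S-methylmethionine permease gene *MMP1* fell by 0.73 and the glutathione and peptide transporter gene *OPT1* by 0.57. In transsulfuration and glutathione metabolism 4 of 12 were called lower and 1 higher. *GSH1*, the limiting enzyme of glutathione synthesis, read 12.35 and 12.28 against 10.94 and 10.99 (−1.35 ± 0.06). *IRC7*, a cysteine desulfhydrase, fell by 0.79 and *ECM38*, which breaks down glutathione, by 0.37, whereas *CYS3* (0.17), *CYS4* (−0.04) and *GSH2* (−0.13) were not called. After quantile normalisation 7 were lower.

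The paired DNA-binding cofactors of Met4 parted. *MET32* fell by 0.67 ± 0.07, from 9.38 and 9.31 to 8.59 and 8.75, and its paralog *MET31* rose by 0.49 ± 0.09, from 10.33 and 10.21 to 10.72 and 10.80. The groups did not overlap in either gene, as in 67.8% of all genes. *MET28*, another cofactor, was called lower (−0.42), but not in every alternative. *MET4* (0.08), *CBF1* (0.09) and *MET30* (−0.05 ± 0.06, adjusted p = 0.546) were not called.

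Single genes of serine and glycine metabolism changed by large amounts in both directions. Of 15 genes of serine, glycine and folate-linked carbon transfer, 7 were called higher and 2 lower, with a median of 0.15, and 6 and 2 in every alternative. *CHA1*, the serine and threonine deaminase induced by those amino acids, read 9.89 and 9.93 against 12.05 and 12.04 (2.13 ± 0.07). *GCV1* and *GCV2*, subunits of the glycine cleavage complex, rose by 1.71 ± 0.07 and 1.41 ± 0.06. *GCV1* read 11.91 and 11.76 and then 13.50 and 13.60. *MTD1*, a tetrahydrofolate dehydrogenase, rose by 1.13 and the serine hydroxymethyltransferase gene *SHM2* by 0.74. The phosphoglycerate dehydrogenase genes of serine synthesis fell, *SER3* from 12.94 and 12.93 to 10.64 and 10.65 (−2.29 ± 0.06) and its paralog *SER33* by 0.47. They were the 2 members called lower.

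Of 15 genes of branched-chain amino acids, 5 were called lower and 1 higher, against 10.4% and 26.2% over all genes, the 5 in every alternative, and 11 and 0 after quantile normalisation. *LEU2*, isopropylmalate dehydrogenase, read 11.77 and 11.65 against 9.56 and 9.64 (−2.11 ± 0.06). *LEU1*, the preceding enzyme, fell by 1.00, *OAC1*, a mitochondrial carrier that exports isopropylmalate, by 0.84, the transaminase gene *BAT1* by 0.63 and the isopropylmalate synthase gene *LEU9* by 0.49. *LEU2* is also among the 8 auxotrophic marker genes, of which 1 other, *ADE2*, was called (0.40, not in every alternative), and *URA3* (0.11), *HIS3* (0.10) and *LYS2* (0.10) were not.

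Of 29 genes of lysine, histidine and aromatic amino acids, 5 were called lower and 3 higher, with a median of 0.05, and 4 and 0 in every alternative. *ARO9* and *ARO10*, of aromatic amino acid breakdown, fell by 0.92 and 0.78, and *LYS9* and *LYS4* of lysine synthesis by 0.60 and 0.42. Of 14 arginine genes, 7 were called higher and 2 lower, with a median of 0.26, and 6 and 0 in every alternative. *ARG8* read 11.79 and 11.78 against 12.45 and 12.54 (0.71 ± 0.06), *ARG3* rose by 0.68, *ARG2* by 0.52 and *CPA1* by 0.36, all enzymes of synthesis, and the regulator genes *ARG80* and *ARG82* by 0.65 and 0.38. *GCN4* (0.15), the general activator of amino acid synthesis, was not called, and of the 8 genes of its list 1 was called higher and 0 lower. Of 21 purine genes, 5 were called higher and 2 lower, near the 26.2% and 10.4% called over all genes. The higher count was 9 without 25 °C replicate 1, 2 without 25 °C replicate 2, and 3 and 1 without 35 °C replicates 1 and 2. *ADE17* rose by 0.49, and *IMD2*, whose probe set may match related genes, fell by 0.76.

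Genes under nitrogen catabolite repression, which serve poor nitrogen sources, split. Of 34, 11 were called higher and 10 lower, against 26.2% and 10.4% over all genes. The median was 0.07, and 7 in each direction were called in every alternative. Without 35 °C replicate 2 there were 7 higher. *GAP1*, the general amino acid permease, read 12.73 and 12.58 against 10.75 and 10.70 (−1.93 ± 0.07), and *MEP2*, the high-affinity ammonium permease, went from 11.71 ± 0.06 to 10.06 ± 0.08 (SD, n = 2), with the groups far apart (−1.65 ± 0.08). The urea permease gene *DUR3* fell by 1.05 and *DAL7*, of allantoin breakdown, by 0.48. The highest difference in the list, called or not, was 2.53 for another gene of allantoin breakdown, *DAL1*. The proline oxidase gene *PUT1* rose by 0.74 and *UGA3*, the activator of GABA use, by 0.65.

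Phosphate and iron genes also divided. Of 24 phosphate genes, 8 were called lower and 4 higher, with a median of −0.06, and 7 and 3 in every alternative. *PHO5*, the secreted acid phosphatase, read 12.84 and 12.74 against 11.29 and 11.39 (−1.45 ± 0.06). *PHO11*, another acid phosphatase whose probe set may match its near copy, fell by 1.31, the sodium-coupled carrier gene *PHO89* by 1.53 and *SPL2*, a repressor of low-affinity uptake, by 0.96. The low-affinity carrier gene *PHO87* rose by 0.49. *PHM7*, which the general stress list also holds, rose by 1.99, from 6.93 on both arrays to 8.98 and 8.86. Of 33 iron regulon genes, 7 were called lower and 6 higher, with a median of 0.05, and 7 and 2 in every alternative. The higher count was 3 and 2 without 25 °C replicate 2 and 35 °C replicate 2. *ARN2*, a siderophore transporter, read 11.89 and 11.80 against 10.25 and 10.33 (−1.56 ± 0.06). The low-affinity iron permease gene *FET4* fell by 1.16, the reductase gene *FRE3* by 1.03 and the mitochondrial carrier gene *MRS4* by 0.82. The iron-sulfur scaffold paralogs parted, with *ISU2* down to 11.34 and 11.40 from 12.15 and 12.09 (−0.75) and *ISU1* up by 0.56. Of 14 zinc and copper genes 5 were called higher and 3 lower, and the higher count was 3 without 35 °C replicate 2. The copper transporter gene *CTR3* rose by 0.55 and the zinc transporter gene *ZRT2* fell by 0.43.

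Late G1 and replication genes were called higher in 29 of 38 cases and lower in 0, against 26.2% and 10.4% over all genes. The median was 0.38, and 21 were called higher in every alternative. The changes were small, up to 0.73 ± 0.07 for *PDS5*, a cohesin regulator, which read 11.53 and 11.44 against 12.22 on both heated arrays. The cohesin genes *IRR1* and *SMC3* rose by 0.63 and 0.54, the repressor gene *YOX1* by 0.68, the Cdk inhibitory kinase gene *SWE1* by 0.62 and the mismatch repair gene *MSH6* by 0.48. Of 24 mitotic genes, 10 were called lower and 4 higher, with a median of −0.08, and 6 and 1 in every alternative. Without 35 °C replicate 1 there were 6 lower. The higher count was 2 without either 25 °C replicate or either met30-6 replicate at 25 °C, and 1 without either 35 °C replicate. *CLB2*, the main mitotic cyclin, read 11.20 and 11.22 against 10.33 and 10.39 (−0.85 ± 0.10). The polo kinase gene *CDC5* fell by 0.59, the cytokinesis gene *HOF1* by 0.49 and the spindle midzone gene *ASE1* by 0.45. *BUB1*, a spindle checkpoint kinase, rose by 0.59. In these bulk cultures a change in the share of cells at a phase and a change in RNA per cell cannot be told apart.

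Of 18 genes of G1 cyclins and Start, 8 were called higher and 3 lower, with a median of 0.16, and 2 in each direction in every alternative. The higher count was 3, 2 and 3 without 25 °C replicate 2, 35 °C replicate 1 and 35 °C replicate 2, and 5 without either met30-6 replicate at 35 °C. *FAR1*, the pheromone-activated inhibitor of G1 cyclins, fell from 11.67 on both arrays to 10.20 and 10.42 (−1.36 ± 0.09). *CLN3*, the upstream G1 cyclin, fell by 0.44, while the cyclin gene *PCL1* and the regulator gene *STB1* rose by 0.56 and 0.54. Of 17 daughter and M/G1 genes, 3 were called higher and 2 lower. The 3 were the cell wall genes *PIR3* (0.65) and *PST1* (0.60) and the glucanase gene *DSE4* (0.41). Of 9 histone genes, 2 were called higher and 0 lower, with 0 and 0 in every alternative. Of 14 replication licensing genes, 1 was called higher and 4 lower, none in every alternative. The lower count was 2 without 25 °C replicate 1 or either met30-6 replicate at 25 °C, and 1 without either 35 °C replicate.

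DNA damage genes were called higher in 11 of 19 cases and lower in 0, against 26.2% and 10.4% over all genes. The median was 0.28, and 4 were called higher in every alternative. The higher count was 7 without 25 °C replicate 2 and 5 without 35 °C replicate 2. *PLM2*, a gene with a forkhead-associated domain, read 7.85 and 8.15 against 9.24 and 9.13 (1.18 ± 0.11). The repair genes *RAD16*, *RAD54* and *RAD7* rose by 0.85, 0.56 and 0.50.

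Mating genes were called lower more often than higher. *FUS1*, of cell fusion, read 10.15 and 10.12 against 9.28 on both heated arrays (−0.86 ± 0.08), and *AGA1*, an anchor of the a-agglutinin, went from 10.96 ± 0.05 to 10.01 ± 0.02 (SD, n = 2; −0.95 ± 0.07). Of 18 MATa and pheromone response markers, 11 were called lower and 1 higher, against 10.4% and 26.2% over all genes. The median was −0.41, and 7 and 0 were called in every alternative. *SST2*, which desensitises the response, fell by 0.81, the agglutinin subunit gene *AGA2* by 0.55, the G-protein alpha subunit gene *GPA1* by 0.48 and the a-factor exporter gene *STE6* by 0.46. The log2 of the list's summed level was 15.78 and 15.62 at 25 °C and 15.25 and 15.34 at 35 °C. The receptor gene *STE2*, defining for a cells, read 13.38 and 13.08 against 12.75 and 12.80 (−0.46, not called without either 35 °C replicate). Of 5 MATalpha markers 0 were called in either direction and 4 were dim, and the log2 of their summed level was 10.24 and 10.11, then 10.07 and 9.98. The alpha-cell receptor gene *STE3* read 6.04 and 5.64 against 6.48 and 6.17, at or near the dim range on every array. Of 29 meiosis and sporulation markers, 13 were dim, and 8 were called higher and 4 lower. The higher count was near the 26.2% called higher over all genes. After quantile normalisation the counts were 3 and 5. *IME1*, the inducer of meiosis, rose by 0.94, from 8.29 and 8.26 to 9.27 and 9.16, while its target kinase gene *IME2* (0.09) was not called. The part of these marker genes in other results was not tested.

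Cell surface genes rose in part. Of 35 genes of cell wall integrity and remodelling, 15 were called higher and 1 lower, with a median of 0.25, and 12 and 0 in every alternative. *CRH1*, which links chitin to glucan, read 12.18 and 12.19 against 13.05 and 13.07 (0.88 ± 0.05). *PRM5*, a target of the wall integrity pathway, rose by 0.88, the yapsin protease gene *YPS3* by 1.04 and *PRM10* by 0.64. The glucan synthase gene *FKS1* (0.25) was not called. Of 9 DAN and TIR mannoproteins and their regulators, 1 was called higher (*TIP1*, 0.37) and 2 lower, and *TIR4* fell by 0.44.

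Membrane lipid genes gave small and unstable counts. Of 35 ergosterol genes, 8 were called higher and 3 lower, with a median of 0.13; there were 5 and 3 higher without 25 °C replicate 2 and 35 °C replicate 2, and 7 higher and 8 lower after quantile normalisation. *ERG11*, lanosterol demethylase, and *CYB5*, cytochrome b5, rose by 0.35 and 0.40. Of 27 phospholipid and inositol genes, 7 were called higher and 3 lower, close to the 26.2% and 10.4% called over all genes. The higher count was 0 without 25 °C replicate 2 or 35 °C replicate 1 and 1 without 35 °C replicate 2. The mitochondrial decarboxylase gene *PSD1* fell by 0.51. Of 26 sphingolipid genes 4 were called in each direction, with 2 and 1 lower without 25 °C replicate 2 and 35 °C replicate 2. The hydroxylase gene *SUR2*, the ceramide synthase gene *LAC1* and the kinase gene *YPK2* rose by 0.63, 0.43 and 0.75, and *IPT1*, of the last step of complex sphingolipid synthesis, fell by 0.54.

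Of 33 autophagy genes, 12 were called higher and 2 lower, against 26.2% and 10.4% over all genes. The median was 0.18, and 6 and 1 were called in every alternative. Without 25 °C replicate 2 there were 6 higher. *ATG36*, the receptor for peroxisomes, read 8.60 and 8.50 against 9.79 and 9.93 (1.31 ± 0.12). *ATG39* and *ATG40*, receptors for the nuclear envelope and the endoplasmic reticulum, rose by 1.25 ± 0.14 and 1.16 ± 0.07. *ATG32*, the receptor for mitochondria, fell instead, from 9.95 and 9.91 to 9.36 and 9.48 (−0.51 ± 0.07). The scaffold gene *ATG31* rose by 0.95. Of 19 genes of protein kinase A and Ras signalling, 5 were called higher and 2 lower, close to the 26.2% and 10.4% called over all genes. The higher count was 2 without 35 °C replicate 2 and 3 without 25 °C replicate 2, 35 °C replicate 1 or either met30-6 replicate at 25 °C. The cyclic AMP phosphodiesterase genes *PDE1* and *PDE2* both rose, by 0.55 and 0.64.

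Some of the larger changes fell outside these lists. The transcripts *YOR338W* and *YHR140W* rose by 2.98 and 2.93. *THI2*, an activator of thiamine genes, rose by 2.19, *CYB2*, the mitochondrial lactate dehydrogenase, by 2.13 and *JHD2*, a histone demethylase, by 1.96. *JHD2* read 7.59 and 7.73 against 9.60 and 9.64. *YCR102C* fell by 2.15, *WSC4*, of the WSC family of surface sensors, by 1.58, *APA2*, of diadenosine polyphosphate breakdown, by 1.05 and the alcohol acetyltransferase gene *ATF2* by 0.99. *ATF2* read 10.94 and 10.95 against 9.96 and 9.94.

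Whether these responses were the same in met30-6 was tested for the 20 genes with the largest rises and the 20 with the largest falls among genes with a mean of at least 8 in both PY1 groups. Being chosen by their PY1 difference, which enters the tested difference, they lean towards a smaller response in met30-6. Over all genes the response differed between the strains for 2631 (48.3%). All 20 risen genes were also called higher in met30-6. The rise was larger there for 14, smaller for *YAT1* and *PRM7*, and not called different for *GPM2*, *NCA3*, *FMP40* and *YTP1*. *HSP26* rose by 3.18 in PY1 and by 4.54 in met30-6, and *GPM2* by 3.05 and 3.01. Of the 20 fallen genes, 14 were also called lower in met30-6, *MET16*, *MET3*, *GSH1* and *GRE2* were called higher there, and *SRX1* and *OYE3* were not called. *MET16* fell by 1.98 in PY1 and rose by 0.95 in met30-6. *GAP1* differed by −1.93 in PY1 and −1.99 in met30-6. That difference between strains was not called, with an unadjusted 95% interval from −0.30 to 0.19. *MEP2*, *FAR1* and the transporter gene *QDR2* were not called different either, with intervals from −0.11 to 0.43, −0.06 to 0.53 and −1.08 to −0.09.

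**Figure D5:**
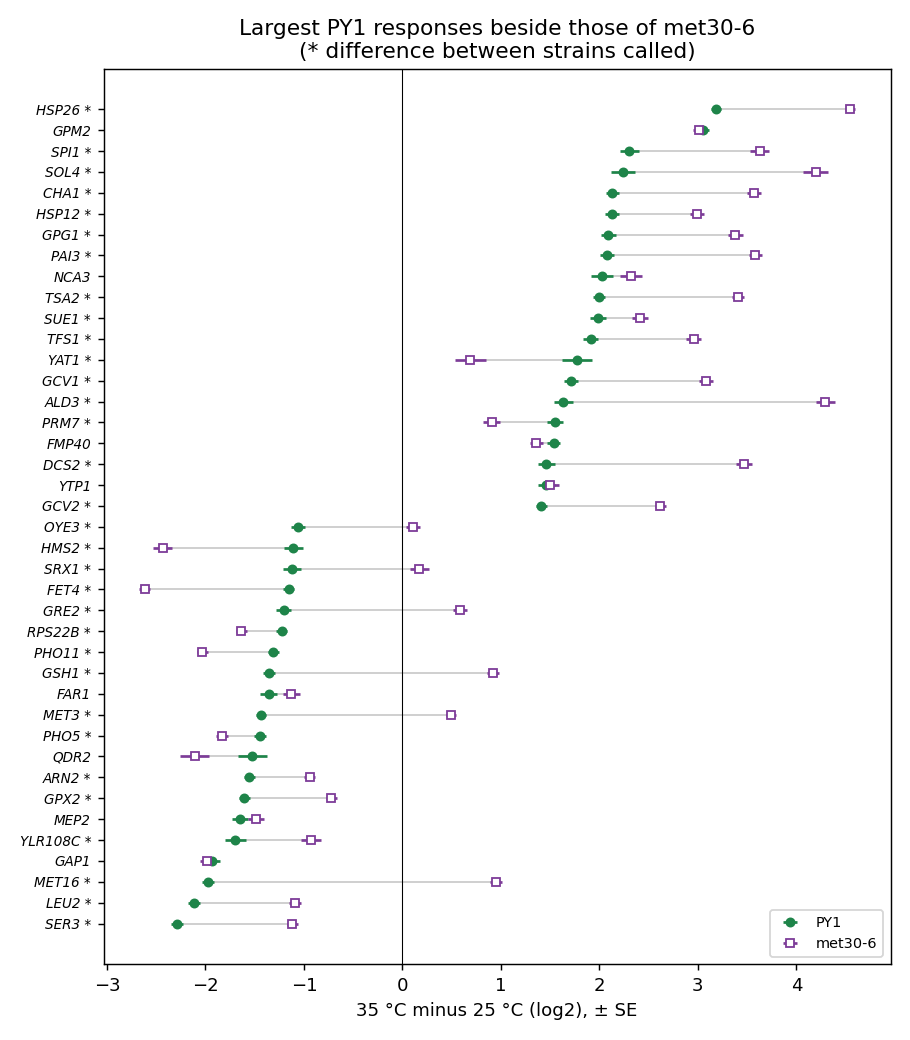
Difference between 35 °C and 25 °C (horizontal axis, log2, bars ± SE) in PY1 (filled green circles) and in met30-6 (open purple squares) for the 20 genes with the largest rises and the 20 with the largest falls in PY1. Asterisks mark genes whose responses differed between strains by limma; *MET16*, *MET3*, *GSH1* and *GRE2* lie on opposite sides of 0.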

How the data were processed

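Transcripts were measured on 8 Affymetrix arrays of biotin-labelled cRNA made from total RNA, per the labels' protocols. The authors deposited 1 table of log2 values for 5716 probe sets; base 2 was inferred from their range, 0 to 14.51. The background correction, summarisation and scaling behind them were not given in the sources used here. No detection call was used. Precision is limited by the number of arrays.

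Probe sets were named with GEO's platform annotation, 12 symbols being updated through a gene table of assembly R64: 5498 had 1 symbol, 0 had several and 218 had none. For the 47 genes with several probe sets, the brightest by its mean across the 8 arrays stood for the gene, leaving 5449 genes, of which 116 had a probe set marked (s_at or x_at) as possibly matching several transcripts. Groups and replicate numbers came from the titles. Group means were modelled over all 8 arrays in R 4.3.3 with limma 3.58.1 (lmFit and eBayes, 4 residual and 2.7 prior degrees of freedom), and 2-sided p-values had a Benjamini-Hochberg adjustment across the 5449 genes. The fit was also run on simulated data with independent noise and 200 changed genes, far fewer than were called here. No result above rests on that run. Same-numbered arrays were not paired by the labels, and their deviations from the group means correlated at −0.18 to 0.11 between groups, so the replicate number was used as a block in an alternative alone.

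The 58 process lists, the 4 marker lists and the gene pairs were chosen with earlier results of these data known, as were the groups compared. Lists are described by counts and medians and were not tested. The genes named were drawn from a set fixed by rule, and not every gene of the set or extreme of a list is named. The set held the 20 largest rises and falls with means of at least 8 and both genes of each pair. From each list came up to 6 called members with the lowest adjusted p, its extremes, and uncalled members of lists of 12 or fewer. The set also held up to 10 rises and 10 falls outside the lists with means of at least 6, and the marker genes. Alternatives were 2 scalings, PY1 arrays alone, genes with a mean under 6 left out, limma with a trended or a robust prior, averaged or all probe sets, the replicate block, and each array left out in turn. A planned search of promoters for motifs was not done here.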

Additional observations from a re-analysis of the deposited data

Results flagged for a closer look

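The response to 35 °C differed between the strains, by limma's test of the difference itself, for 32 of the 40 genes with the largest bright changes in PY1. The 40 were chosen by the PY1 difference, which is part of the tested difference. Values are the met30-6 response minus the PY1 response on the log2 scale. For a gene that rose in PY1, a positive value means a larger rise in met30-6. For a gene that fell, it means a smaller fall, no called change or a rise in met30-6. All 32 had an adjusted p under 0.05. Over all genes 48.3% were called in this test.

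Among genes that rose in PY1, the chaperone and stress genes *HSP26*, *HSP12*, *SPI1*, *SOL4*, *PAI3*, *TFS1*, *ALD3* and *DCS2* differed by 1.36, 0.86, 1.32, 1.96, 1.51, 1.05, 2.66 and 2.01. The serine and glycine breakdown genes *CHA1*, *GCV1* and *GCV2* differed by 1.44, 1.37 and 1.21. *GPG1* differed by 1.29, *TSA2* by 1.41 and *SUE1* by 0.42. The rises of *YAT1* and *PRM7* were smaller in met30-6, by −1.08 and −0.65.

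Among genes that fell in PY1, the sulfur genes *MET16*, *MET3* and *GSH1* differed by 2.92, 1.93 and 2.27. The redox genes *GPX2*, *SRX1*, *OYE3* and *GRE2* differed by 0.89, 1.29, 1.17 and 1.79. *SER3* differed by 1.17, *LEU2* by 1.02, *YLR108C* by 0.77 and *ARN2* by 0.61. Larger falls in met30-6 were found for *PHO5* (−0.38), *PHO11* (−0.72), *RPS22B* (−0.41), *FET4* (−1.46) and *HMS2* (−1.33).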

How the results depend on the processing

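Of the 370 called genes in the set from which genes were named, 254 were called with the same sign in every alternative that kept them. In this set 0 reversed with a call. Of all 1998 calls, 45.8% held. Quantile normalisation gave 1144 genes lower, 89 at least 2-fold higher and 70 at least 2-fold lower, and 2294 calls in all. Leaving out 1 array gave 732 to 1424 genes higher, 299 to 516 lower, 123 to 157 at least 2-fold higher and 38 to 44 at least 2-fold lower. The fewest higher calls came without PY1 35 °C replicate 2 and the fewest lower calls without PY1 35 °C replicate 1; the alternative leaves fewer arrays. The other alternatives kept these 4 counts within 1.5 times. With the replicate block, 1665 genes were called (1200 higher, 465 lower), 1651 of them called with the same sign without it. Among the 241 genes with a mean under 6 over the PY1 arrays, the median SE was 0.329.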

Other observations

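Of the 218 probe sets with no gene name here, 65 were called higher and 25 lower at 35 °C in PY1 when all probe sets were tested together.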
